A study of Gossypium hirsutum with 7 samples.

Results

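ACC oxidase genes were followed in whole ovules of cotton (Gossypium hirsutum, whose A and D subgenomes each carry a copy of most genes) in which the homeodomain gene GhHD-1 had been silenced or over-expressed. The genes were taken as every probe set whose only annotated gene carries the RefSeq synonym ACO1 or ACO3. This gave 3 probe sets from 3 genes, out of 697 probe sets from 520 genes that had a single annotated gene on the array. The first reads ACO3 (LOC107915412), the second a gene named ACO1 (LOC107905899), and the third another gene that carries the same name ACO1 (LOC107954048). By their design suffixes (s for the first pair, x for the third) all of them may detect more than a single transcript, and a value can therefore mix A and D copies or close family members.

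Ethylene is made from methionine by way of S-adenosylmethionine. ACC synthase turns S-adenosylmethionine into ACC (1-aminocyclopropane-1-carboxylic acid), and ACC oxidase, an iron-dependent enzyme that uses oxygen and ascorbate, turns ACC into ethylene. Cotton fibres are single cells that grow out of the ovule epidermis, and ethylene given to cultured cotton ovules promotes their elongation. GhHD-1 encodes a homeodomain leucine zipper factor of the epidermis.

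Ovules of every group were collected on the day of flowering (0 days post anthesis), the stage of fibre initiation. The samples were wild-type plants (2 arrays), GhHD-1 silenced transgenic plants (2 arrays) and GhHD-1 over-expression transgenic plants (3 arrays), 1 biotin-labelled RNA sample per Affymetrix cotton array. Arrays of a group are labelled as biological replicates. Neither the promoter behind each transgene nor the number of lines in a transgenic group is stated in those labels. The level of GhHD-1 itself was not analysed here, since the annotation gave that name to no probe set.

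The arrays of a group were not equally alike. Across the 23977 probe sets tested the silenced pair correlated at r = 0.997, the wild-type pair at 0.981, and over-expression replicate 2 at 0.985 and 0.989 with the other two of its group, which correlated at 0.995. On wild-type replicate 2 the mean of 27 poly-A spike controls was 8.04, against 4.92 to 6.40 on the other arrays. Median log2 intensities were 7.61 to 7.72, and 5% of the probe sets of each array lay below 3.50 to 3.67. Of 7 probe sets for fibre and epidermis markers, 6 were above those medians on every array, among them E6 (9.69 to 10.70) and HOX3 (9.94 to 10.90), while myb109 (5.60 to 7.18) was below them. The 3 probe sets for Pel and G9 were also below them on every array. G9, taken as a pollen marker, read 3.67 to 4.46. Pel, also in use as a fibre-stage marker but not counted among those 7, read 4.16 to 5.01 and 3.86 to 5.26. RCA1, a gene of leaf photosynthesis, read 4.73 to 5.61 and the seed storage gene vicB_At 3.07 to 3.63, while other embryo markers spread from 3.07 (1 LEGB probe set) to 12.09 (Lea5-D).

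ACO3 read lower on both silenced arrays than on any other array. Its log2 intensity was 10.67 and 11.44 in wild type, 9.35 and 9.43 in silenced ovules, and 11.12, 11.27 and 10.31 in over-expression. The highest silenced array lay 0.89 below the lowest of the other 5, and the wild-type and over-expression arrays overlapped. The group means were 11.06 ± 0.55 (SD, n = 2) in wild type, 9.39 ± 0.053 (SD, n = 2) in silenced ovules and 10.90 ± 0.51 (SD, n = 3) in over-expression. The 2 silenced arrays thus varied least. In bulk ovules, fewer cells of a type and less RNA per cell cannot be told apart.

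**Figure D1:**
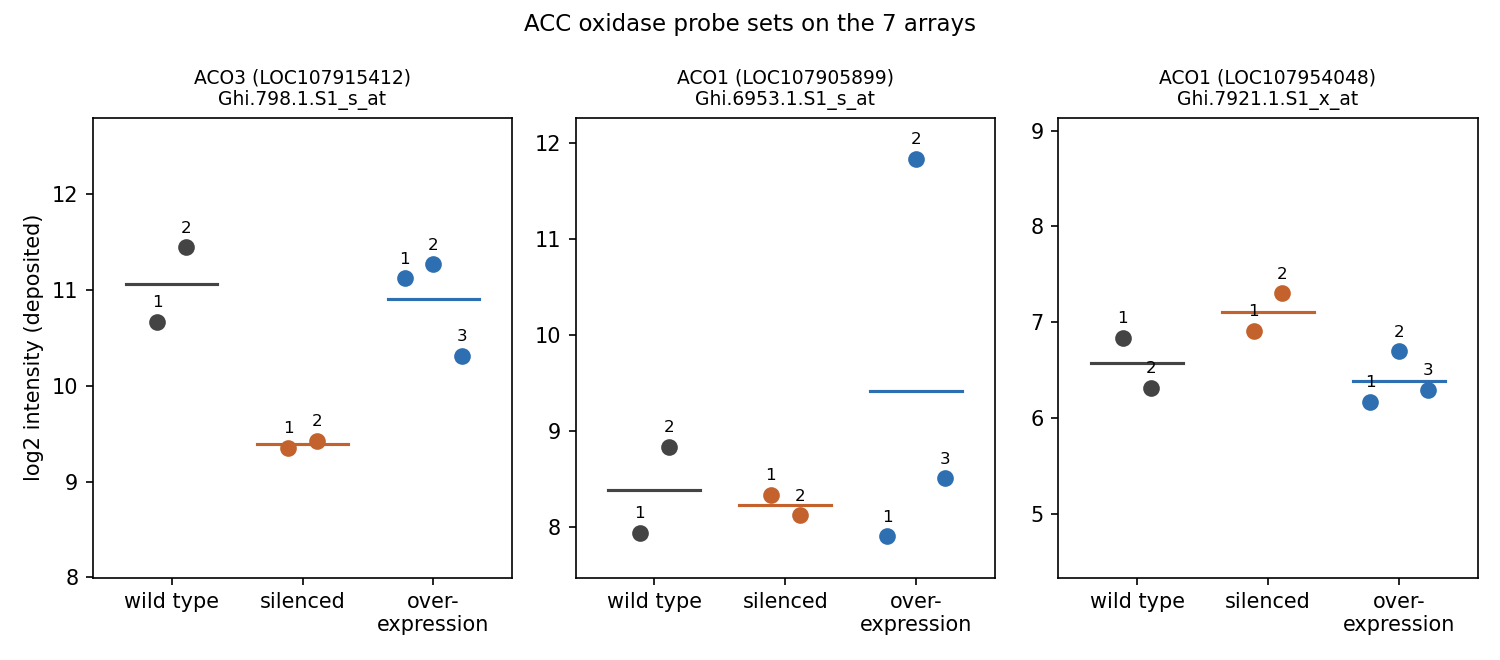
Deposited log2 intensity (vertical axes, of equal span but different level in each panel) of the ACC oxidase probe sets on each array, by group; points are arrays with their replicate number and lines are group means. The silenced arrays of ACO3 read 9.35 and 9.43, below all others, and for ACO1 (LOC107905899) over-expression replicate 2 read 11.84 beside 7.90 to 8.84 on the other 6 arrays.

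The comparison of silenced with wild-type ovules asks whether ACC oxidase transcripts are lower when GhHD-1 is silenced. For ACO3 the log2 difference was -1.67 (SE 0.36, 95% interval -2.52 to -0.82), a 3.18-fold lower level, and the lower wild-type array stood 1.24 above the higher silenced array. It did not pass the test: limma gave an unadjusted p of 0.00235 and an adjusted p of 0.171 over all 23977 probe sets. The percentage of all probe sets called in this comparison was 0, with 14.5% at an unadjusted p under 0.05. Arrays that did not overlap with the silenced ones lower were found at 21.8% of all probe sets, so the separation alone is common. The size was not common: 0.142% of all probe sets had a difference as low as that of ACO3. That share takes no account of the spread between arrays. Against the wild-type arrays taken singly, the difference was -2.06 (adjusted p = 0.0672) without wild-type replicate 1 and -1.28 (adjusted p = 0.195) without replicate 2; in each case the single wild-type array left was taken to have the spread of the remaining groups.

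The 2 genes named ACO1 did not share that pattern. ACO1 (LOC107905899) read 7.94 and 8.84 in wild type and 8.33 and 8.12 in silenced ovules, so the silenced values lay between the wild-type ones. The log2 difference was -0.16 (SE 1.16, 95% interval -2.91 to 2.59, adjusted p = 0.958). ACO1 (LOC107954048) read 6.84 and 6.32 in wild type and 6.91 and 7.30 in silenced ovules. Both silenced arrays lay above the other 5, by a margin of 0.073 over the nearest wild-type array; arrays apart in that direction were found at 23.6% of all probe sets. The log2 difference was 0.53 (SE 0.25, 95% interval -0.063 to 1.12, adjusted p = 0.389). It was 0.27 without wild-type replicate 2 and 0.79 without replicate 1. At an unadjusted p under 0.05 there was thus 1 of the 3 ACC oxidase probe sets, ACO3, in the direction in which 7.34% of all probe sets were found.

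Over-expression against wild type tests whether more GhHD-1 goes with a different level of these genes, and here ACO3 was close to wild type. Its log2 difference was -0.16 (SE 0.33, 95% interval -0.93 to 0.62, adjusted p = 0.863). The interval leaves room for a level up to 0.93 lower or 0.62 higher on the log2 scale. The sign rested on single arrays, with 0.23 without wild-type replicate 2 and 0.14 without over-expression replicate 3. ACO1 (LOC107954048) read 6.17, 6.70 and 6.30 in over-expression, arrays that overlapped with those of wild type, with a difference of -0.19 (SE 0.23, 95% interval -0.73 to 0.35, adjusted p = 0.755) that was 0.071 without wild-type replicate 1. None of the 3 passed, in a comparison where limma called 0.00417% of all probe sets.

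ACO1 (LOC107905899) was set by 1 array of the over-expression group. Replicates 1 and 3 read 7.90 and 8.51, the first just below both wild-type arrays and the second between them, while replicate 2 read 11.84. That array stood 3.00 above the next highest of all 7, the largest such excess of any of the 23977 probe sets on over-expression replicate 2. Probe sets at least 3 above all other arrays were more frequent on wild-type replicate 1, with 13 there, 1 on over-expression replicate 2 and 0 on each of the other 5 arrays. The SD of the group was 2.12 (n = 3), a spread reached by 0.0417% of all probe sets (10 in number). The difference from wild type was 1.03 (SE 1.06, 95% interval -1.48 to 3.54, adjusted p = 0.710), and without over-expression replicate 2 it was -0.18 (adjusted p = 0.853). The 3 groups share an estimate of the spread in the fit. When only the silenced and wild-type arrays were fitted, the SE of this gene for their difference of -0.16 was 0.33 in place of 1.16, with an adjusted p of 0.842.

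Between the transgenic groups, ACO3 again had the largest difference of the 3. It was higher in over-expression by 1.51 (SE 0.33, 95% interval 0.74 to 2.29), 2.85-fold, with 0.89 between the nearest arrays. The adjusted p was 0.172, and limma called 0.0209% of all probe sets. Arrays apart with over-expression higher were found at 17.8% of all probe sets. ACO1 (LOC107954048) was lower in over-expression by a log2 difference of -0.72 (SE 0.23, 95% interval -1.26 to -0.18, adjusted p = 0.288), with 0.21 between the nearest arrays; 16.1% of all probe sets were apart in that direction. For ACO1 (LOC107905899) the difference of 1.19 (SE 1.06, 95% interval -1.32 to 3.70, adjusted p = 0.728) became -0.022 without over-expression replicate 2. When arrays were weighted by their agreement with their group, the adjusted p fell to 0.0368 for ACO3 and 0.0440 for ACO1 (LOC107954048), with 1209 probe sets called in all in place of 5. This comparison uses the same silenced arrays as the comparison with wild type, so the low ACO3 values enter both.

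**Figure D2:**
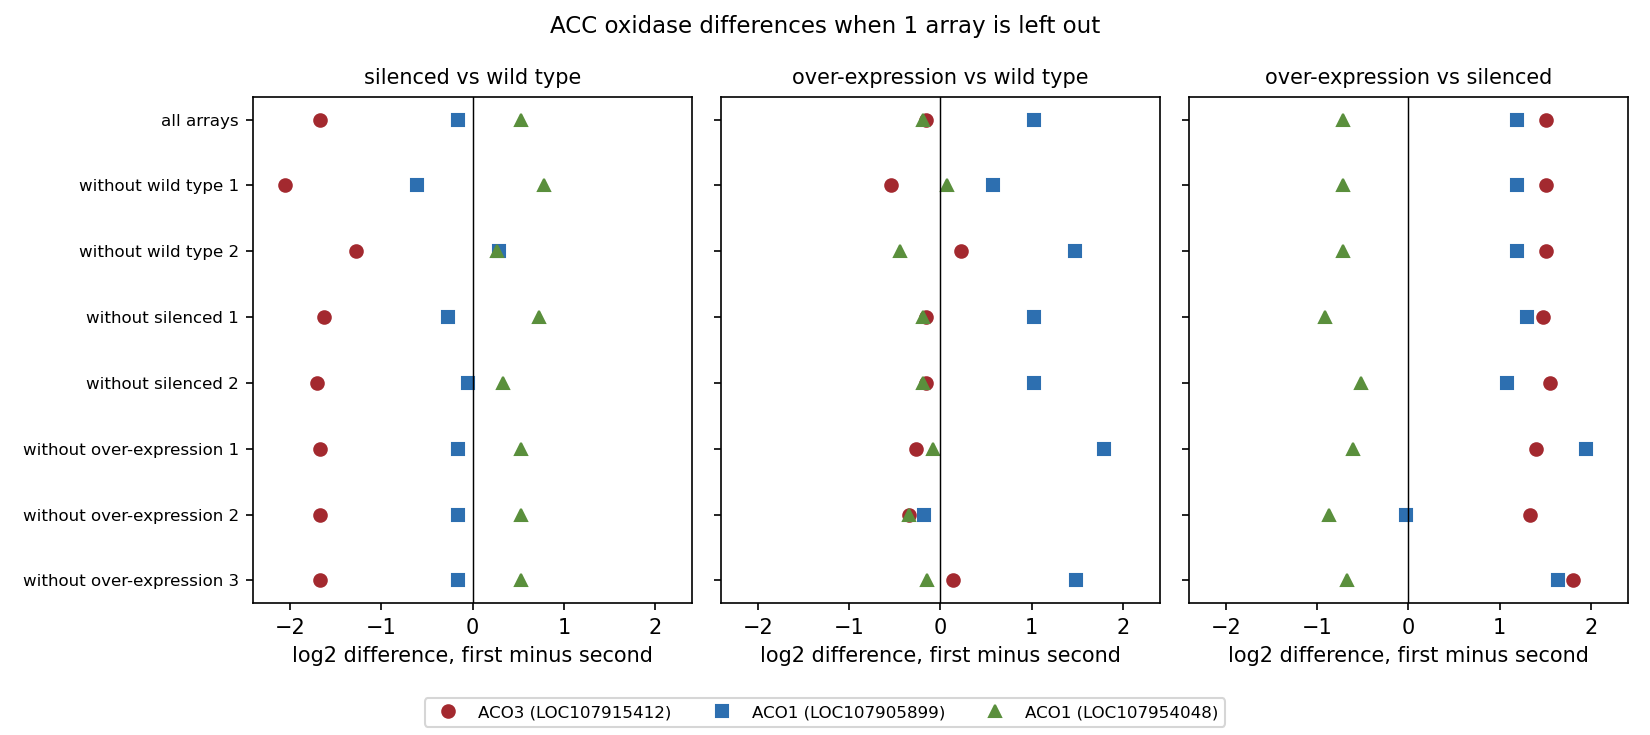
Log2 difference between groups (horizontal axis) for the ACC oxidase probe sets with all arrays and with each array left out in turn (rows). The ACO3 difference between silenced and wild type stays between -2.06 and -1.28, while ACO1 (LOC107905899) moves from 1.19 to -0.022 between the transgenic groups when over-expression replicate 2 is left out.

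The ACC oxidase probe sets varied differently over the 7 arrays. ACO3 and ACO1 (LOC107954048) ran opposite to each other, with r = -0.705 over 7 arrays and -0.790 over 6 without over-expression replicate 2. ACO3 and ACO1 (LOC107905899) gave r = 0.418, or 0.190 without that array, and the 2 ACO1 genes gave -0.016, or -0.295 without it. These values describe 7 arrays that share groups and a common normalisation.

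The other genes of the pathway were gathered by name and role. The array annotation held 8 such probe sets from 7 genes: 1 for S-adenosylmethionine synthetase (listed as MAT and SAMS), 2 with names used for ACC synthases (1 listed as ACS3 and ACS6, and ACS1) and 5 for ethylene response factors, the transcription factors at the end of the ethylene signal (ERF3, ERF7, ERF8 and 2 for ERF9). The name ACS1 is also in use for acyl-CoA synthetases, and the annotation gives no product. None was listed for a further ACC oxidase, for the receptors and CTR, or for the EIN and EIL factors. The annotation listed no gene for 23234 of the 23977 probe sets tested, and 46 with several genes were left out. Probe sets for such genes may therefore be on the array without being found here. In no comparison did any of the 8 pass after adjustment.

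Upstream of ACC oxidase, the silenced arrays were the lower ones for both the S-adenosylmethionine synthetase and the ACS3 and ACS6 gene. The synthetase read 12.57 and 12.46 in wild type, 12.02 and 11.92 in silenced ovules and 12.21, 12.61 and 12.32 in over-expression. Both silenced arrays lay below the other 5. Of all probe sets, 21.8% had the silenced arrays below those of wild type and 17.8% below those of over-expression. The share below both was not counted. The synthetase difference from wild type was -0.54 (SE 0.16, 95% interval -0.91 to -0.17, adjusted p = 0.225). The ACS3 and ACS6 gene read 10.26 and 9.69 in wild type, 8.62 and 8.68 in silenced ovules and 7.96, 11.29 and 9.37 in over-expression. Silenced and wild-type arrays did not overlap, as at 21.8% of all probe sets in that direction, but over-expression spanned both. The difference between silenced and wild type was -1.32 (SE 0.91, 95% interval -3.48 to 0.83, adjusted p = 0.528). ACS1 read 11.42 to 12.02 over all arrays and differed between silenced and wild type by 0.027 (SE 0.18, 95% interval -0.40 to 0.46, adjusted p = 0.956).

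Over-expression replicate 2 held the highest value of its group at 8 of these 11 probe sets, the ACC oxidases included (72.7%), against 29.9% of all probe sets. This count was made after the values were seen. The ACS3 and ACS6 gene stood out most after ACO1 (LOC107905899): its 11.29 there was 1.03 above the next highest of all arrays, an excess matched or passed by 103 probe sets. Over all 7 arrays these 2 genes gave r = 0.766 (Spearman's rho 0.607), and r = 0.310 over the 6 arrays without over-expression replicate 2, so the likeness rests on that array.

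**Figure D3:**
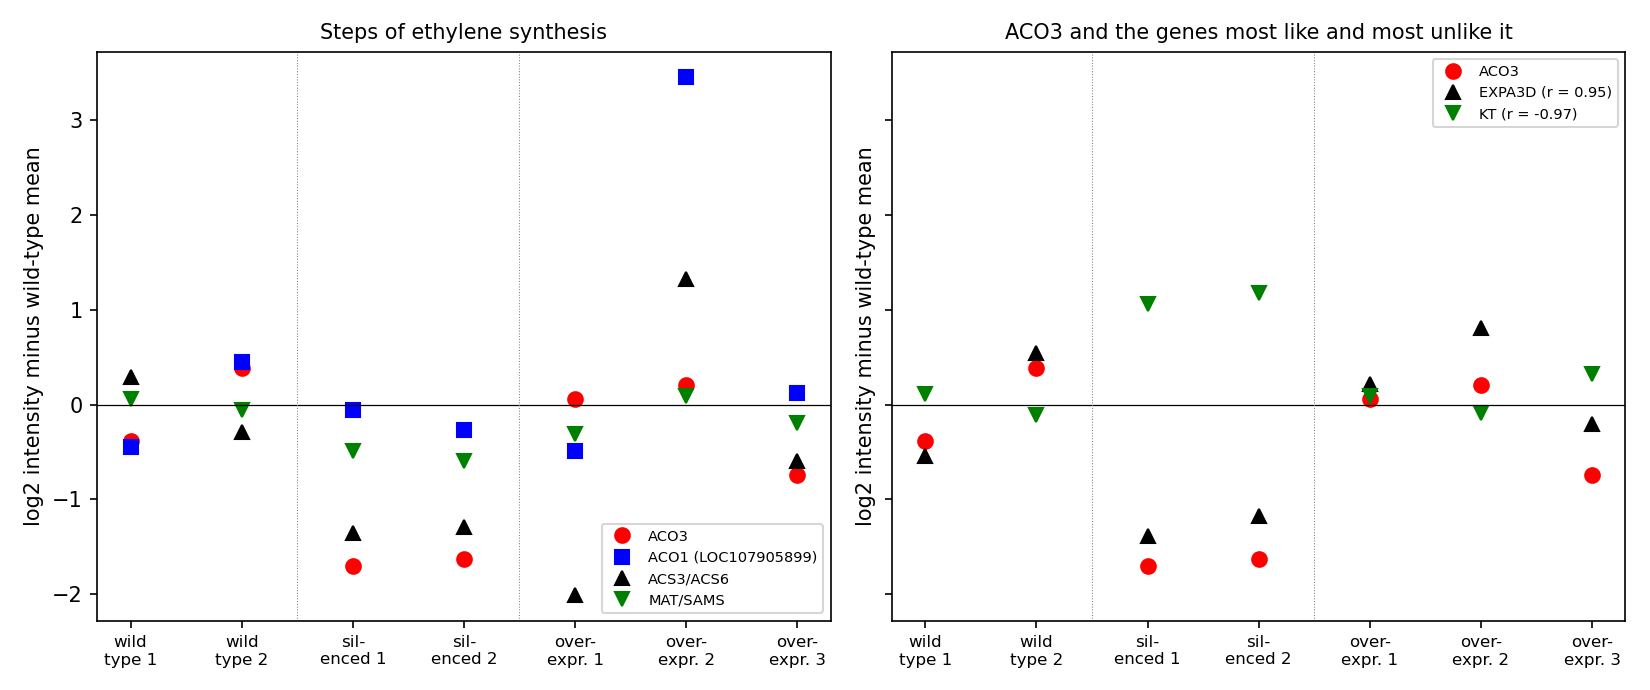
Log2 intensity minus the wild-type mean (vertical axis) on each array, for some genes of ethylene synthesis (left) and for ACO3 with the named genes most like and most unlike it (right). Not drawn on the left are ACO1 (LOC107954048) and ACS1, whose differences of silenced from wild type were 0.53 and 0.027. ACO3, ACS3/ACS6 and MAT/SAMS lie below the wild-type mean on both silenced arrays, ACO1 (LOC107905899) peaks on over-expression replicate 2, and KT runs opposite to ACO3 with r = -0.973.

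Downstream, the response factors went both ways in silenced ovules. ERF3 read 9.05 and 9.44 in wild type, 8.35 and 8.56 in silenced ovules and 9.07, 9.06 and 9.32 in over-expression. As for ACO3, both silenced arrays lay below the other 5. Silenced arrays below those of wild type are common, at 21.8% of all probe sets, as are those below over-expression, at 17.8%. The ERF3 difference from wild type was -0.79 (SE 0.18, adjusted p = 0.175). ERF7 was lowest in wild type, at 6.01 and 6.52, with 6.91 and 6.93 in silenced ovules and 7.21, 7.13 and 7.69 in over-expression (difference of over-expression from wild type 1.08, SE 0.22, adjusted p = 0.397). ERF8 read 4.47 and 4.61 in wild type, 4.89 and 5.17 in silenced ovules and 4.30, 4.52 and 3.99 in over-expression. Its silenced arrays lay above the other 5, at a low signal. Of all probe sets, 23.6% had the silenced arrays above those of wild type and 16.1% above those of over-expression. For ERF8, over-expression differed from silenced by -0.76 (SE 0.18, adjusted p = 0.187). The ERF9 probe sets differed between silenced and wild type by -0.96 (SE 0.35) and -0.78 (SE 0.31), also at a low signal.

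Over the 8 probe sets, 5 lay below wild type and 3 above it in silenced ovules, with a median log2 difference of -0.66 beside 0.017 over all probe sets. At an unadjusted p under 0.05 there were 4 of the 8 lower, beside 7.34% of all probe sets, and 2 higher, beside 7.14%. Among those 4 lower are both probe sets of ERF9, which read 1 gene at a low signal. In over-expression the median was -0.13 against 0.019 over all, and 1 probe set, ERF7, had an unadjusted p under 0.05, beside 10.4% of all probe sets in either direction and 6.06% in the direction of ERF7. Between over-expression and silenced the median was 0.41 against 0.015 over all, with 3 higher and 1 lower at an unadjusted p under 0.05, beside 6.43% and 5.63% of all (12.1% in either direction). The last comparison uses the silenced arrays of the first. The lists were chosen with earlier results of these data known, so these counts describe the 8 probe sets and do not test them as a set.

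**Figure D4:**
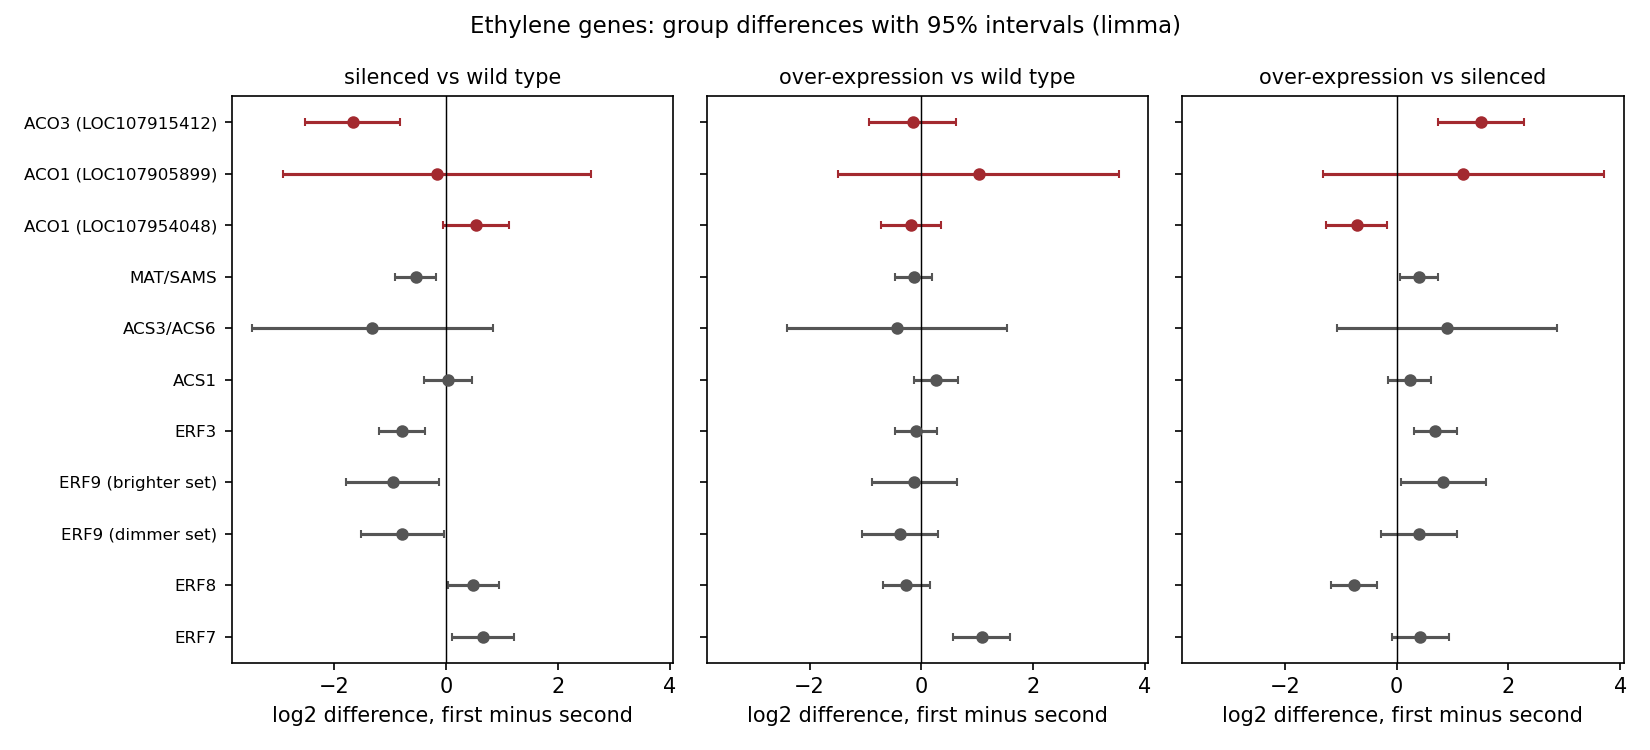
Log2 differences (horizontal axis; points) with 95% intervals from limma (bars) for the ACC oxidase probe sets (red) and the other ethylene probe sets (grey) in the 3 comparisons. The ACO3 interval lies below 0 for silenced against wild type (-2.52 to -0.82) and spans 0 for over-expression against wild type, and ACO1 (LOC107905899) has the widest intervals.

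Among 323 other probe sets with a gene name, the expansin gene EXPA3D followed ACO3 most closely over the 7 arrays. EXPA3D, of a family that loosens cell walls, read 8.92 and 10.01 in wild type, 8.08 and 8.29 in silenced ovules and 9.68, 10.28 and 9.26 in over-expression. Its r with ACO3 was 0.952, and 0.922 when each array was taken as its deviation from the group mean. The genes named here were picked by their r on these same arrays, and the deviations leave 4 degrees of freedom. The within-group values therefore describe the likeness and do not test it. Mn-SOD, a manganese superoxide dismutase, gave r = 0.912 and 0.678 within groups. A probe set listed as GRPL1, GRPL2 and rgp1 gave 0.901 and 0.619, the NAC factor NAC7 gave 0.887 and 0.727, and BNLGHi8377 gave 0.876 and 0.465. The GRPL1, GRPL2 and rgp1 probe set read 3.44 to 4.64, with silenced arrays (3.58 and 3.44) near the 5% level. A brighter probe set of the same names (6.92 to 8.45) gave 0.834 and 0.385 within groups. The most opposite was KT, at 8.06 and 7.83 in wild type, 9.01 and 9.12 in silenced ovules and 8.04, 7.86 and 8.27 in over-expression (r = -0.973, within groups -0.914). CBP3 (-0.932, within groups -0.924) and CBP2 (-0.865, within groups -0.972) followed.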

How the data were processed

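The values deposited by the authors are log2 intensities per probe set. The tools listed by the submitters' processing notes, without role or order, are RMA, limma and R 2.7.1. RMA corrects background, equalises array distributions and summarises probes, so global shifts are removed and low signals compressed. No further transformation was applied. Of 24132 probe sets, 103 AFFX and 52 RPTR controls were set apart and 23977 tested. Names came from the platform annotation and the RefSeq gene table of Gossypium_hirsutum_v2.1; 697 probe sets had 1 gene, all matched, and 324 a name beyond a locus number. The array files name no build, so no coordinates are given.

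limma 3.58.1 in R 4.3.3 was fitted to all 7 arrays with 1 mean per group (lmFit, eBayes; prior degrees of freedom 3.01, residual 4). Tests are two-sided, Benjamini-Hochberg adjusted over all 23977 probe sets per comparison, threshold 0.05. The script was tested on simulated data. With 2 or 3 arrays in each group, precision is limited by their number; p-values measure the spread between these arrays.

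The genes, pathway lists and comparisons were chosen with earlier results of these data known. Named beyond the ACC oxidases were the 3 pathway probe sets with the smallest p (ERF7, ERF3, ERF8) and the 5 genes most and 3 least correlated with ACO3; the other pathway genes are given as the remaining list members, and lists were matched by whole gene name. The alternatives tried were a block for the replicate number, other fits, normalisations and filters, array weights and leaving out each array.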

Additional observations from a re-analysis of the deposited data

How the results depend on the processing

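Over 15 alternatives, 126 of 135 recomputed ACC oxidase differences kept their direction and their side of the threshold. 7 changed sign and 2 came to pass the test. Array weights brought 2 to pass between over-expression and silenced: ACO3 at 1.29 (adjusted p = 0.0368; 0.0368 to 0.887 over the alternatives) and ACO1 (LOC107954048) at -0.78 (adjusted p = 0.0440; 0.0440 to 0.927). With the replicate block the ACO3 difference of over-expression from wild type turned to 0.14. The labels do not state whether arrays of the same number were handled together. Deviations of same-numbered arrays correlated at -0.305 to 0.148. With 2 arrays in a group the deviations mirror each other, so these values cannot settle it. The block took the calls for over-expression against wild type from 1 to 0 and against silenced from 5 to 0, with 0 for silenced against wild type in both. For ACO3 between silenced and wild type it gave the same -1.67 with SE 0.22 in place of 0.36 and an adjusted p of 0.477 from limma.

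Leaving out single arrays gave ACO3 differences of -2.06 to -1.28 (silenced against wild type), -0.54 to 0.23 (over-expression against wild type) and 1.33 to 1.80 (over-expression against silenced). In the same order the ranges were -0.61 to 0.29, -0.18 to 1.79 and -0.022 to 1.95 for ACO1 (LOC107905899) and 0.27 to 0.79, -0.45 to 0.071 and -0.91 to -0.52 for ACO1 (LOC107954048). The sign changes of ACO3 came without wild-type replicate 2, the higher of its group (11.44), or over-expression replicate 3, the lowest of its group (10.31). Leaving out either raises a difference that was near 0. Why these arrays read so was not tested.

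The number of probe sets called over the array was 0, 1 and 5 in the same order. Without single arrays it was 0 to 73, 0 to 475 and 0 to 238. It was 73 without wild-type replicate 1 and 35 without replicate 2 for silenced against wild type, and 475 without wild-type replicate 2 for over-expression against wild type. Other changes were 7 with a robust prior (silenced against wild type), 0 with only the groups compared or with array weights (over-expression against wild type), and 238 with only the groups compared, 9 with median centring and 1209 with array weights (over-expression against silenced). For over-expression against silenced, leaving out either wild-type array repeats the fit of only the groups compared, since a single array left adds nothing to the spread. The count for that comparison was 37 without over-expression replicate 2 and 0 without over-expression replicate 1 or 3. The causes of these changes were not tested. RMA compresses low signals, which limits small differences near the 5% level.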

Other observations

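Genes like the ACO1 probe sets were ranked in the same way as for ACO3 after their values were seen. ACO1 (LOC107954048), which read highest on the silenced arrays, went with Di19-2 (r = 0.946), MYB1 (0.941), 1 probe set of SKD1 (0.938) and the homeobox gene HB4 (0.931) over the 7 arrays. It ran opposite to DFR, an enzyme of anthocyanin synthesis (-0.969), and a probe set of the expansin EXPA1 (-0.951). That SKD1 probe set had a low signal, 3.72 to 4.81. Another, brighter SKD1 probe set read 10.69 and 10.48 in silenced ovules, within the 10.18 to 10.74 of the other arrays. HB4 read 9.52 and 9.30 in wild type, 10.42 and 10.65 in silenced ovules and 8.94, 9.68 and 9.12 in over-expression. Its silenced arrays thus lay above all others, as they did for ACO1 (LOC107954048). HB4 was picked by its r with that probe set on these same arrays, so the shared pattern follows from the choice and tests nothing. Silenced arrays above those of wild type were found at 23.6% of all probe sets, and above those of over-expression at 16.1%.

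ACO1 (LOC107905899) went with 2 probe sets of the auxin gene Aux4 (r = 0.885 and 0.857), a probe set of the MAP kinase MPK3 (0.854), VATE (0.843), Fb2 (0.842) and WRKY15 (0.827). Each of these was highest on over-expression replicate 2, which a ranking by r against a probe set with 1 such high value favours. By rank the likeness was weaker, with Spearman's rho from 0.306 (that MPK3 probe set) to 0.714 (VATE). The other MPK3 probe set (r = 0.821), for example, had 7.40 on that array beside a range of 4.94 to 6.33 over the remaining 6. Fb2 had only 8.98 there beside 8.73 to 8.87. NAC4 read 8.29 on over-expression replicate 2 and 5.65 to 7.07 elsewhere at 1 of its probe sets (r = 0.814, rho 0.357).

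A gene listed as ACS with no number, and so outside the name lists, had 4 probe sets at low signal, from 2.59 to 5.62 over all arrays. Their differences between silenced and wild type were -0.036 to 0.38, with adjusted p of 0.293 or more.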
